A study of Homo sapiens with 12 samples.

Results

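The genes described here were 50 genes of the cell division cycle and of DNA replication, taken by name out of 25992 gene names on the array. They were measured in human proximal tubular cells (HPTCs) first deprived of serum and supplements for 24 h. For the next 24 h they received no stimulus (control), interleukin-1β (IL-1β, 10 ng/mL) or the SGLT2 inhibitor empagliflozin (Empa, 500 nM). HK-2 and RPTEC/TERT1 are immortalized lines from human proximal tubule, grown in different media at normal glucose and starved after reaching confluence. The 12 one-color arrays carried 6 labelled groups of 2, namely control, IL-1β and Empa under the labels HK2 and RPTEC. The 3 arrays of each label and replicate number shared 1 of 4 slides, and the slides are named here by these labels as HK2 1, HK2 2, RPTEC 1 and RPTEC 2.

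By role, the 50 were 2 proliferation markers (MKI67, TOP2A), 8 cyclins, CDK1 and CDC25 phosphatases (CCNA2, CCNB1, CCNB2, CCNE1, CCNE2, CDK1, CDC25A, CDC25C) and 14 genes of replication licensing, origin firing and the fork (CDC6, CDT1, MCM2 to MCM7, MCM10, CDC45, GINS2, PCNA, FEN1, UHRF1). There were 3 genes of deoxynucleotide supply (RRM2, TYMS, TK1), 5 mitotic kinase and checkpoint genes (BUB1, BUB1B, AURKA, AURKB, PLK1) and 3 partners of the APC/C (CDC20, UBE2C, PTTG1). The remaining were 10 spindle, centromere and midzone genes (KIF11, KIF20A, KIF23, KIF2C, CENPA, CENPE, CENPF, NUSAP1, TPX2, BIRC5) and 5 transcription factors (FOXM1, MYBL2, E2F1, E2F2, E2F8).

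A dividing cell first licenses its replication origins by loading the MCM helicase with CDC6 and CDT1, then fires the origins and copies its DNA with PCNA, CDC45 and the GINS complex. Cyclin-dependent kinase 1 (CDK1) with B cyclins drives entry into mitosis, where Aurora and Polo-like kinases build the spindle and the BUB kinases hold the checkpoint until the anaphase-promoting complex (APC/C) destroys cyclin B and securin. E2F factors switch on the replication genes and MYBL2 and FOXM1 the mitotic genes, whereas in resting cells the DREAM complex represses both sets. Confluence and withdrawal of serum are standard ways to take cultured epithelial cells out of the cycle.

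Promoter letters differed between the replication genes and the mitotic genes of this list. RefSeq promoters of GRCh38.p14, from 250 bases before to 50 bases after the annotated start, were at hand for 41 of the 50 genes. On both strands, the letters TTTGAA of the cell cycle genes homology region (CHR, read by DREAM and MYBL2 complexes), CCAAT (read by NF-Y) and TTTNNCGC (an E2F site) were searched. TTTGAA was present in 10 of 16 promoters of proliferation markers and mitotic genes (62.5%), in 0 of 15 promoters of replication and deoxynucleotide genes, and in 12.1% of 15843 protein-coding promoters. TTTNNCGC was present in 2 of the 16 (12.5%), in 10 of the 15 (66.7%) and in 8.86% of all. CCAAT was present in 29 of the 41 promoters (70.7%) against 36.4% of all. A match to such letters is a description of the window and not a bound site. The 150 bases before the start are printed for PTTG1 and BUB1, which rose with IL-1β, for CDC20 and MKI67, which carry the CHR and CCAAT letters, and for PCNA and E2F1, which carry the E2F letters. Capitals mark CHR, CCAAT and E2F letters on either strand, and neighbouring matches can overlap.
PTTG1 (chr5:160421705-160421854, + strand): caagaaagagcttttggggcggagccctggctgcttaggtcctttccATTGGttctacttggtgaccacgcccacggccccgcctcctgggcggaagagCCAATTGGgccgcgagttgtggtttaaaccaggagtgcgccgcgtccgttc
BUB1 (chr2:110678064-110678213, - strand): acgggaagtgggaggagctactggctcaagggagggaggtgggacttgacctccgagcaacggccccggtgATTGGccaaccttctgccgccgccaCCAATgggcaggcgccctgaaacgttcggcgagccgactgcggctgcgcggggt
CDC20 (chr1:43358831-43358980, + strand): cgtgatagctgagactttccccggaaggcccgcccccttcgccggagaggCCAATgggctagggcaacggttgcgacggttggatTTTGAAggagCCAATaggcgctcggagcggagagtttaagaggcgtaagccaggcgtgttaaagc
MKI67 (chr10:128126424-128126573, - strand): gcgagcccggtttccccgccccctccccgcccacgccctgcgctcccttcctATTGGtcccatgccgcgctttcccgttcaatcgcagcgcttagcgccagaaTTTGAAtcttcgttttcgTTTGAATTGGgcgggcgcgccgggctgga
PCNA (chr20:5126623-5126772, - strand): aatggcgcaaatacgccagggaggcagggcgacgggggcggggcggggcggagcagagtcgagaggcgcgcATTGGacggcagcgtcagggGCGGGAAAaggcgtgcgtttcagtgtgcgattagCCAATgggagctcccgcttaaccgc
E2F1 (chr20:33686386-33686535, - strand): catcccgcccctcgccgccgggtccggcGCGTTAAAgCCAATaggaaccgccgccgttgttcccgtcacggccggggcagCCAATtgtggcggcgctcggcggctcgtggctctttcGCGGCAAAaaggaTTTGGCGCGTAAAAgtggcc

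The slides did not group by their labels, and the source field named HK-2 for all 12 arrays. Arrays of slide HK2 1 and slide RPTEC 2 given the same treatment correlated with r = 0.960 to 0.984 across 15329 probes well above background on all arrays, as did arrays of HK2 2 and RPTEC 1, whereas all other pairs reached r = 0.835 to 0.889. Arrays are therefore named by their labels only, and no statement is made on which line a slide held. The proximal tubule markers LRP2, AQP1, SLC5A2, GGT1, MME and PAX8 were well above background on all 12 arrays, ANPEP only on slides HK2 1 and RPTEC 2, and HNF4A, CUBN and SLC22A6 on none. Among 5 fibroblast markers, LUM was well above background only on slides HK2 2 and RPTEC 1 and PDGFRB on no array. DCN had control levels of 2.72 and 2.71 on these slides against -5.16 and -5.09 on HK2 1 and RPTEC 2, while COL1A1 went the other way with -4.57 and -4.39 against -2.78 and -3.06. COL3A1 was well above background on 2 arrays. The log2 of the summed signal of the 5 markers, where the brightest weigh most, was 2.29 to 3.59 on HK2 2 and RPTEC 1. On the other slides it was -4.00 to -2.20. For 4 epithelial markers the same measure lay between 4.93 and 5.47 on slides HK2 2 and RPTEC 1 and between 5.85 and 6.72 on the others. Of 7 known IL-1β targets tested as a check of the treatment, 6 rose with IL-1β. DCN and LUM were higher on the slides with the higher cell cycle levels given next, and the summed epithelial signal was lower there. Their part in these levels was not tested.

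Levels are log2 signals relative to the 75th percentile of an array, so that 0 is the signal of that percentile, and signals under 1 unit were set to a floor at -8.67. Of the 50 genes, 47 had a usable spot on every array, and 23 of these were well above background on all 12 arrays. No member was saturated on any array. Between 46 and 47 members were well above background on the arrays of slides HK2 2 and RPTEC 1, and between 26 and 33 on those of slides HK2 1 and RPTEC 2.

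Untreated cells on slides HK2 2 and RPTEC 1 had higher signal in every cell cycle gene with a usable spot than those on the other slides. In 47 of 47 genes the control levels of HK2 2 and RPTEC 1 were the highest of the 4 controls, which was the case for 27.1% of 25622 genes without a filter on dim probes. Among the genes tested for treatment effects, 30 of 35 cell cycle genes were more than 4-fold higher on both slides, against 3.71% of all genes. TYMS, KIF2C and MCM6, which had a spot flagged as an outlier on at least 1 array, had the same order with that spot kept. For the 26 genes that were well above background on all 4 control arrays, the lower of the high controls exceeded the higher of the low controls by 2.03-fold to 52.9-fold with a median of 9.86-fold. By label, no gene passed the test of the control levels (limma, 0 of 15717 genes called, 188 at an unadjusted p under 0.05), and 5 genes passed with no filter on dim probes. Each label held a high and a low slide, so a difference between these slides could not show in this test. In bulk RNA, fewer cycling cells and less of a transcript per cell cannot be told apart.

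**Figure D1:**
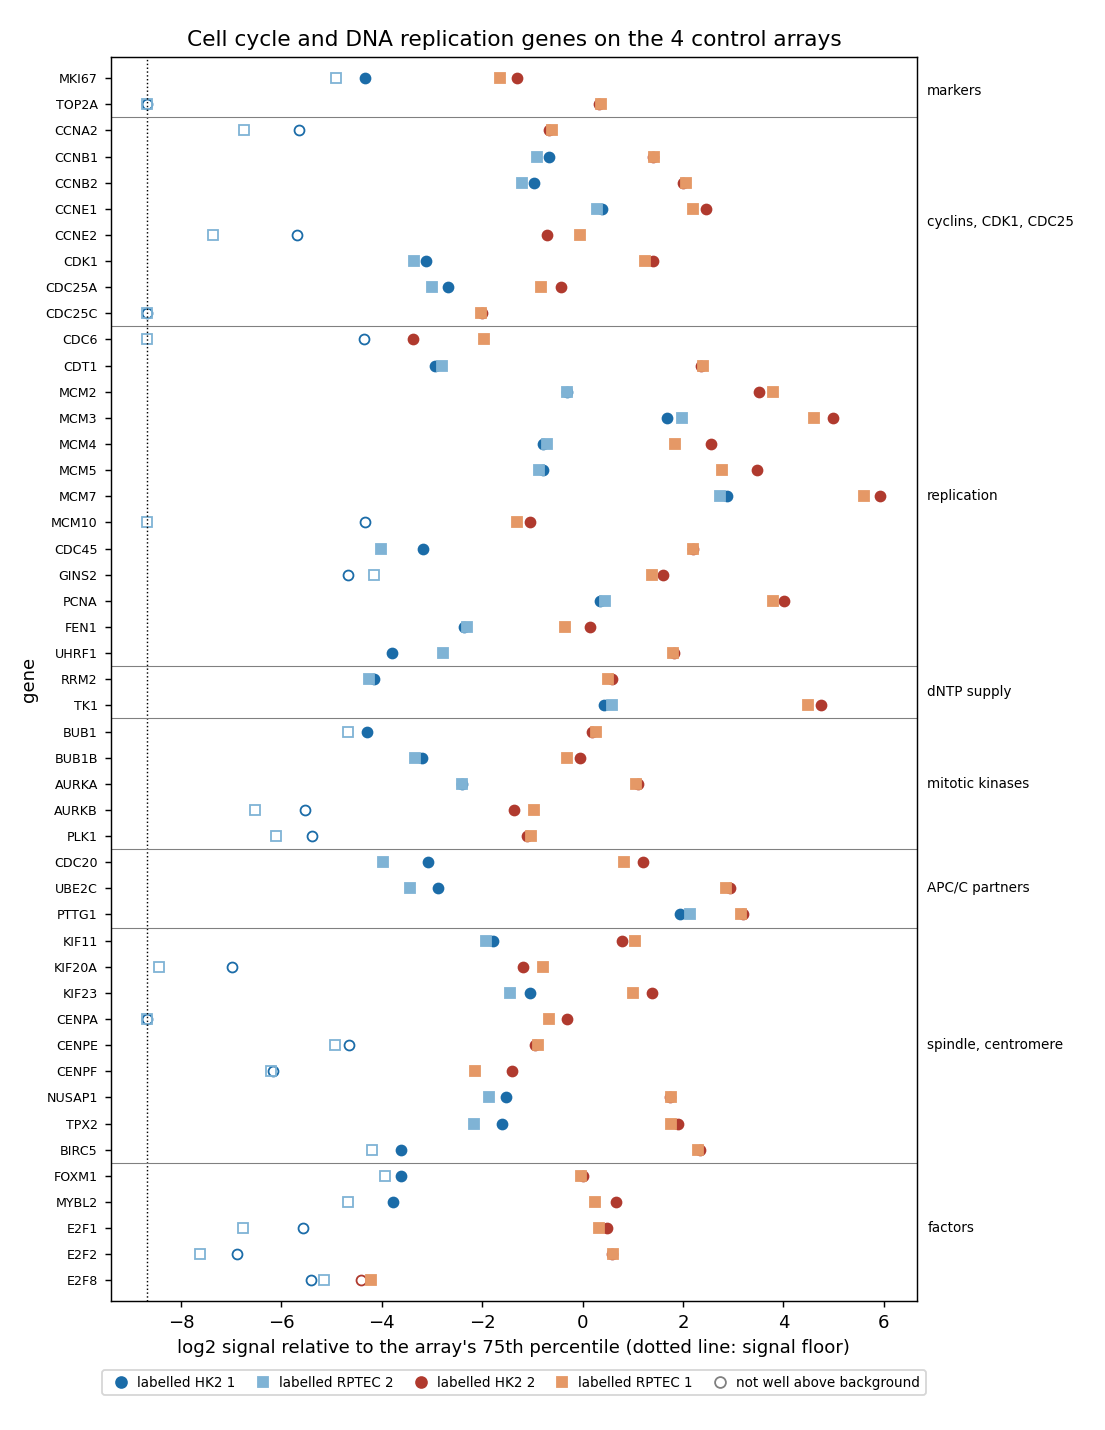
Level of 47 cell cycle and DNA replication genes (rows, by role) on the 4 control arrays. The x axis is the log2 signal relative to the 75th percentile of the array, filled symbols are well above background, open symbols are not, and the dotted line marks the floor at -8.67. Red and orange symbols (HK2 2 and RPTEC 1) lie to the right of both blue ones in 47 of 47 rows.

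Among the proliferation markers, MKI67, which encodes the Ki-67 antigen of cycling cells, had control levels of -1.30 on HK2 2 and -1.65 on RPTEC 1 against -4.34 on HK2 1 and -4.91 on RPTEC 2. TOP2A, the topoisomerase that untangles sister chromatids, had levels of 0.32 and 0.37 on the former slides and lay at the floor on the latter. The last value is a bound, and the gap in TOP2A was at least 61.7-fold on the scale of the lowest signals well above background. On the same slides UBE2C, the ubiquitin-conjugating enzyme of the APC/C, had levels of 2.94 and 2.85 against -2.88 and -3.43, a gap of 52.9-fold. CDC45, a part of the replicative helicase, differed by 41.6-fold and CDK1 by 20.8-fold. The smallest measured gap, 2.03-fold, was that of PTTG1, which encodes securin, the brake on sister chromatid separation.

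Replication genes followed the same order. PCNA, the sliding clamp of the replication fork, stood at 4.00 and 3.80 on HK2 2 and RPTEC 1 against 0.34 and 0.45 on HK2 1 and RPTEC 2. MCM2, a subunit of the replicative helicase, stood at 3.52 and 3.80 against -0.31 and -0.32. TK1, the thymidine kinase of the salvage pathway, stood at 4.75 and 4.48 against 0.43 and 0.58. E2F1 stood at 0.48 and 0.33 on the former slides and was not well above background on any of the 6 arrays of the others. The weakest separation was in CDC6, with -3.37 and -1.97 against -4.35 and -8.67, and in E2F8, a repressor of late S phase, with -4.40 and -4.21 against -5.40 and -5.14. In both genes the low control arrays were not well above background, and for E2F8 neither was the HK2 2 control.

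IL-1β was compared with control over the 4 slides in a limma model with slide as a block. It moved 12.5% of 15717 genes past an adjusted p of 0.05, 4.73% higher and 7.74% lower. Of the 35 cell cycle genes tested, 3 rose and 0 fell, a count near the background, and 10 higher and 1 lower reached an unadjusted p under 0.05, or 11 of 35 against 27.9% of all genes. Over the 15717 genes, 1719 were higher and 2673 lower at that unadjusted p. The median log2 difference of the 35 was 0.21 against -0.10 over all genes tested. The 3 genes were PTTG1, UBE2C and BUB1, and UBE2C and BUB1 are named because they passed the test. All 3 act around the metaphase to anaphase transition. CDC20 (mean log2 difference 0.14) and BUB1B belong to the same step and did not pass, so no shared step is read from these calls.

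PTTG1 signal on the HK2 1 slide went from 1.94 in the control to 3.81 with IL-1β, and on RPTEC 2 from 2.13 to 3.79. On HK2 2 it went from 3.19 to 4.26, and on RPTEC 1 from 3.15 to 3.95. Every IL-1β array lay above every control array, although the control levels of the slides differed. The log2 difference was 1.35 (SE 0.26, n = 4 slides, limma adjusted p = 0.0117), which is 2.54-fold. The 60 base probe lies on chromosome 5 at 159855644-159855703 of hg19. Near-identical intronless copies of PTTG1 exist in the genome, and hybridisation of their transcripts to the probe was not tested.

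UBE2C signal with IL-1β against control was -2.24 against -2.88 on HK2 1, -2.10 against -3.43 on RPTEC 2, 3.82 against 2.94 on HK2 2 and 3.88 against 2.85 on RPTEC 1. The signal was higher on all 4 slides, while the groups overlapped across slides. The log2 difference was 0.97 (SE 0.24, n = 4 slides, limma adjusted p = 0.0301), which is 1.96-fold. BUB1, the checkpoint kinase of the kinetochore, had signals of -1.95 against -4.30 on HK2 1, -2.19 against -4.67 on RPTEC 2, 1.20 against 0.18 on HK2 2 and 1.25 against 0.26 on RPTEC 1. Its log2 difference was 1.71 (SE 0.46, n = 4 slides, limma adjusted p = 0.0426). The control array of RPTEC 2 was not well above background for BUB1, so that 1.71 is no measured size. On the slides with both arrays well above background, the BUB1 differences were 2.35 on HK2 1, 1.02 on HK2 2 and 0.99 on RPTEC 1. BUB1B, a related checkpoint kinase, had -0.89 on HK2 1 and -1.05 on RPTEC 2, where its IL-1β array was not well above background, and 0.44 and 0.67 on HK2 2 and RPTEC 1. Without the slide block, 7 genes (0.0445%) and 0 of the cell cycle genes were called (limma), and without slide RPTEC 2 none of the 3 passed. In the fit without the block, the gap between the slides of a label counts as spread between replicates.

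**Figure D2:**
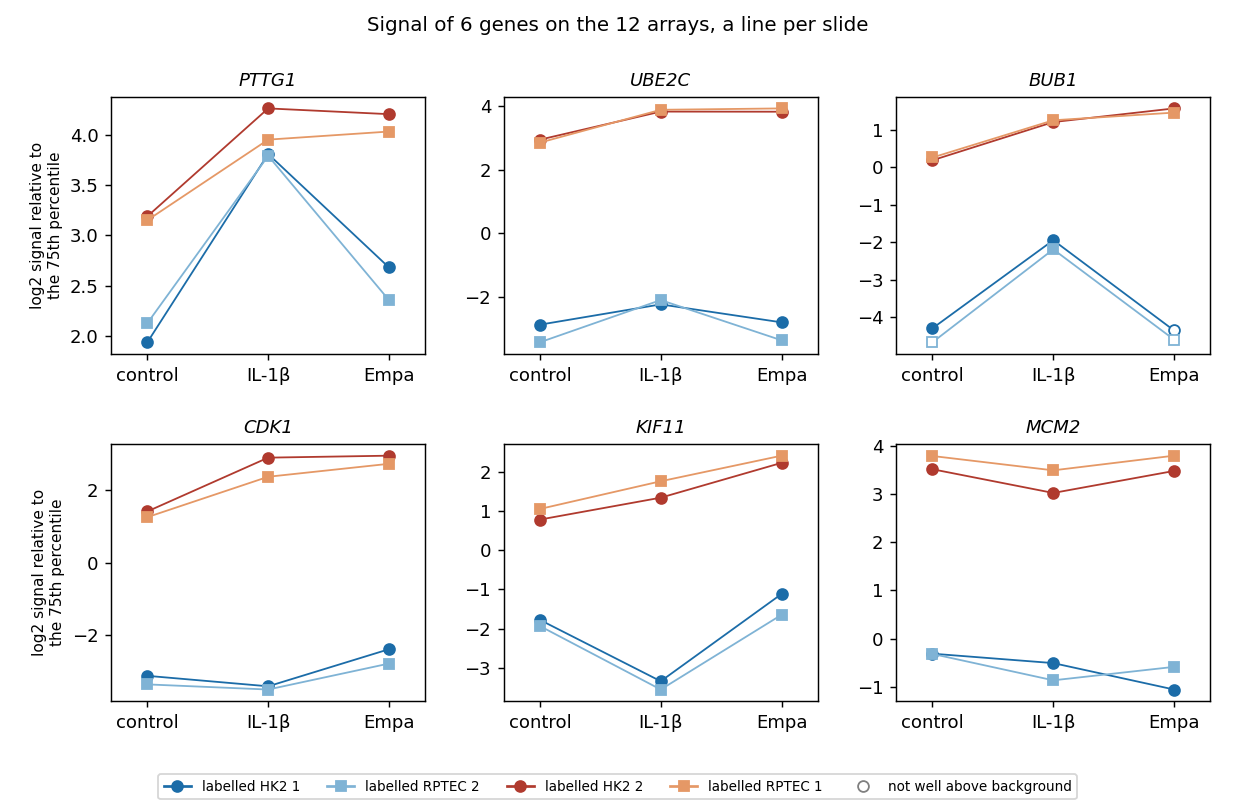
Level of 6 genes on all 12 arrays, with 1 line for each slide. The y axis is the log2 signal relative to the 75th percentile of the array, and open symbols are not well above background. PTTG1, UBE2C and BUB1 are higher with IL-1β on 4 of 4 slides, KIF11 moves in opposite directions on the upper and lower slides, and MCM2 is lower with IL-1β on 4 of 4 slides.

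The remaining genes separated the slides. With IL-1β, 35 of 46 measured cell cycle genes were higher on HK2 2 (median log2 difference 0.42) and 41 of 47 on RPTEC 1 (median 0.58), where 40.6% and 43.9% of all measured genes were higher. On HK2 1, 13 of 30 were higher (median -0.07, 38.7% of all genes), and on RPTEC 2, 13 of 23 (median 0.08, 48.6% of all genes). A difference was counted as measured where both arrays were well above background. Across the 23 genes measured on all arrays, the IL-1β differences of HK2 1 and RPTEC 2 correlated with r = 0.904 and those of HK2 2 and RPTEC 1 with r = 0.804, while the 4 remaining pairs of slides gave r = 0.201 to 0.354. On both HK2 2 and RPTEC 1, 33 of 46 genes were higher (28% of all measured genes) and 4 of 46 more than 2-fold higher (1.51%). On both HK2 1 and RPTEC 2, 9 of 23 were higher (33.3%), 10 lower (45.9%) and 3 more than 2-fold higher (5.41%). The correlations over the 23 genes are across genes of 1 pathway, which are not independent, and describe these slides. As labelled, no gene passed the test for a difference in the IL-1β effect between RPTEC and HK2 (limma interaction, 0 of 15717 genes, 280 or 1.78% at an unadjusted p under 0.05). Each label held a slide from either correlated pair, so this test could not show a difference between those pairs.

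Among the kinases and spindle genes, AURKA, the centrosomal Aurora kinase, had differences of 1.35, 1.05, 0.77 and 1.11 on HK2 1, RPTEC 2, HK2 2 and RPTEC 1. With a log2 difference of 1.07 (SE 0.44, limma adjusted p = 0.151) it did not pass. NUSAP1, a spindle microtubule binder, had differences of 1.66, 1.74, 0.52 and 0.24 and an adjusted p of 0.085. KIF11, the motor that pushes the spindle poles apart, had differences of -1.56 and -1.62 on HK2 1 and RPTEC 2 but 0.56 and 0.70 on HK2 2 and RPTEC 1. Its mean over the slides, -0.48 (SE 0.39, adjusted p = 0.469), therefore described neither pair. CDK1 had differences of -0.29, -0.14, 1.48 and 1.11 in the same order, and MKI67 0.03, 0.72, 1.05 and 1.11. The control array of RPTEC 2 was not well above background for MKI67. TOP2A had differences of 1.08 and 0.79 on HK2 2 and RPTEC 1, and its probe was not measured on the other slides.

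RRM2, the small subunit of ribonucleotide reductase that supplies deoxynucleotides, had differences of 0.44 and 1.10 on HK2 2 and RPTEC 1 and of -1.87 and -3.61 on HK2 1 and RPTEC 2, with IL-1β arrays not well above background there. TK1 had differences of 0.05, 0.29, 0.37 and 0.49. MCM2 was lower on every slide with -0.20, -0.55, -0.49 and -0.30 and a log2 difference of -0.38 (SE 0.19, adjusted p = 0.218). Over all genes tested, 6406 of 15717 had a positive difference with IL-1β and 12.5% passed in either direction. Of the 12 licensing, origin and fork genes tested, 3 had a positive difference, and none passed. CDT1, the licensing factor, came closest among the negative ones with -0.73 (SE 0.23, adjusted p = 0.0741), with values of -1.15, -1.33, -0.19 and -0.25. The IL-1β array of RPTEC 2 was not well above background for CDT1, so that -0.73 is no measured size. CDC45, which joins the helicase when origins fire, had -0.07, 1.17, 0.92 and 0.77 and an adjusted p of 0.0707. PCNA had -0.21, -0.16, 0.24 and -0.08.

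The filter on dim probes, which asked for signal on both arrays of a labelled group, left out 12 of the 47 genes. With a filter by slide instead, chosen after seeing this loss, all 47 genes were tested and 4 passed with IL-1β, against 11.6% of 16067 genes. The additional one was CCNE2, which encodes cyclin E2 of the G1 to S transition. Its signals with IL-1β against control were 0.53 against -0.71 on HK2 2 and 0.52 against -0.05 on RPTEC 1. On HK2 1 they were -5.65 against -5.69 and on RPTEC 2 -5.77 against -7.37, none of them well above background. The log2 difference of CCNE2 was 0.86 (limma adjusted p = 0.0458) and rested in part on these dim arrays.

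**Figure D3:**
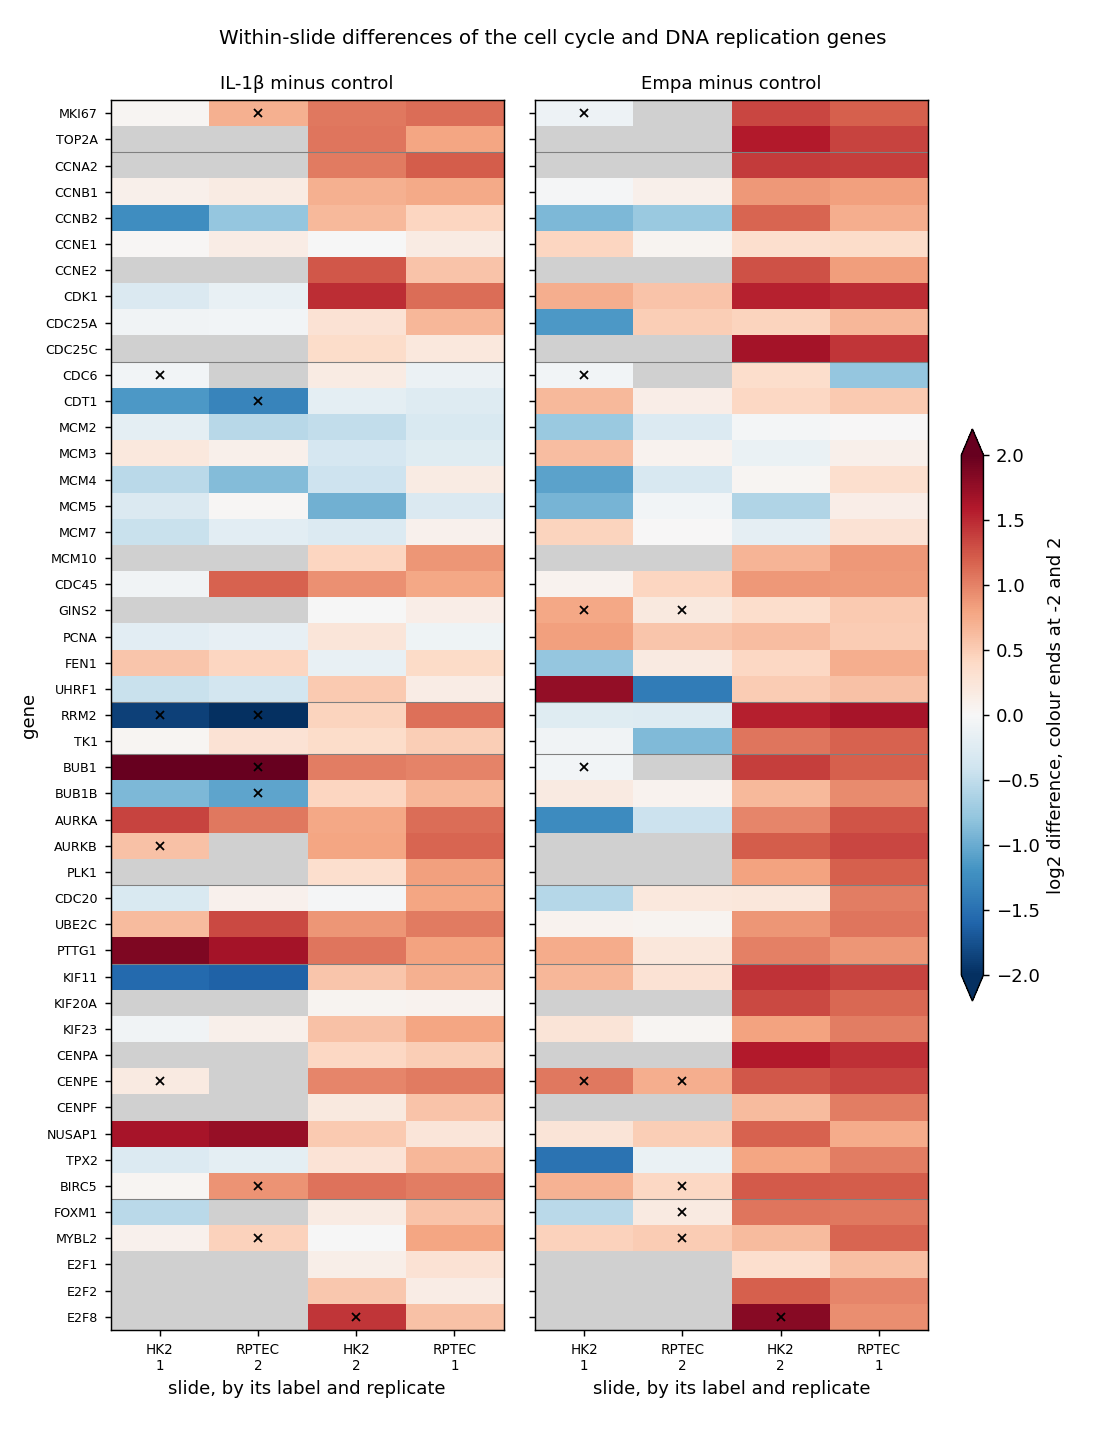
Log2 difference of IL-1β minus control (left) and Empa minus control (right) for 47 genes (rows, by role, separated by lines) on each slide (columns). Red is higher and blue lower than the control of the slide, crosses mark pairs with 1 array not well above background, and grey marks pairs with neither well above it. Empa columns of HK2 2 and RPTEC 1 are red for 42 of 46 and 46 of 47 measured genes.

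With Empa, no cell cycle gene passed the test. Of 15717 genes 1 did, or 0.00636%, and of the 35 cell cycle genes 0 did. An unadjusted p under 0.05 was reached by 10 of the 35 (limma), all higher with Empa, against 12.1% of all genes tested in either direction. Over these 15717 genes, 906 were higher and 988 lower at that p. The adjusted p-values of the 10 cell cycle genes lay between 0.134 and 0.396, and 9 of the 10 were higher on all 4 slides. Over the 35 genes, 15 were higher on 4 of 4 slides with Empa (12.9% of all genes) and 11 with IL-1β (15.6%), and 2 were lower on 4 of 4 slides with IL-1β (24.1%). The difference was positive for 32 of the 35 genes, with a median of 0.44 against -0.02 over all genes tested. Treatment and position on the slide cannot be told apart, because every slide held control, IL-1β and Empa at the same 3 positions, and both treatments were set against the same control arrays.

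The differences with Empa were concentrated on slides HK2 2 and RPTEC 1. There 42 of 46 measured cell cycle genes (median log2 difference 0.87) and 46 of 47 (median 0.98) were higher, against 40.1% and 45.9% of all measured genes. On HK2 1 and RPTEC 2 the counts were 16 of 29 (median 0.07) and 17 of 26 (median 0.06), against 56.9% and 53.4%. On both HK2 2 and RPTEC 1, 41 of 46 genes were higher with Empa, against 28.1% of all measured genes. More than 2-fold higher on both were 15 of 46 genes, and 0.776% of all measured genes. On both HK2 1 and RPTEC 2 it was 0 of 26 genes, against 0.278%. There, 13 of 26 genes were higher on both slides (35.7% of all measured genes) and 8 lower on both (25.6%). Empa differences of HK2 2 and RPTEC 1 correlated with r = 0.844 across the 23 genes measured on all arrays, and those of HK2 1 and RPTEC 2 with r = 0.029.

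CDK1 signals with Empa against control were 2.95 against 1.41 on HK2 2 and 2.73 against 1.25 on RPTEC 1. On HK2 1 they were -2.39 against -3.13 and on RPTEC 2 -2.79 against -3.36, so that each Empa array exceeded the control of its slide. The log2 difference was 1.08 (SE 0.29, n = 4 slides, limma adjusted p = 0.273). CENPE, a kinetochore motor that brings chromosomes to the spindle equator, had the smallest p among the cell cycle genes with a difference of 1.09 (SE 0.19, adjusted p = 0.134). Its values were 1.24 and 1.34 on HK2 2 and RPTEC 1 and 1.05 and 0.73 on HK2 1 and RPTEC 2, where the controls were not well above background. CENPE, BIRC5 and MYBL2 are named for their small p.

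PCNA had the smallest p among the replication genes, with differences of 0.82, 0.56, 0.62 and 0.50 on HK2 1, RPTEC 2, HK2 2 and RPTEC 1 and a mean of 0.63 (SE 0.15, adjusted p = 0.249). It was higher on all 4 slides. MCM2 had differences of -0.75, -0.27, -0.04 and 0.01, and MCM5 -0.93, -0.05, -0.60 and 0.14. CDC6 had -0.06, 3.23, 0.36 and -0.78, of which 3.23 rests on a control at the floor. Among the deoxynucleotide genes, TK1 had -0.08 and -0.88 on HK2 1 and RPTEC 2 but 1.06 and 1.18 on HK2 2 and RPTEC 1, and RRM2 had -0.25 and -0.25 on the former and 1.55 and 1.65 on the latter.

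Mitotic genes behaved like CDK1 on HK2 2 and RPTEC 1. CCNB1, the mitotic B cyclin, had differences of 0.87 and 0.82, against -0.03 and 0.11 on HK2 1 and RPTEC 2. KIF11 had 1.44 and 1.36 against 0.66 and 0.29, and MKI67 1.34 and 1.19. TOP2A had 1.59 and 1.36 on HK2 2 and RPTEC 1. AURKA had 0.97 and 1.25 against -1.25 and -0.43, which gave a mean of 0.14 (SE 0.44, adjusted p = 0.907). NUSAP1 had 1.17 and 0.74 against 0.26 and 0.50, and PTTG1 1.01 and 0.88 against 0.74 and 0.23. BIRC5, the survivin subunit of the chromosomal passenger complex, had 1.23 and 1.21 against 0.70 and 0.42 (mean 0.89, adjusted p = 0.259). The control array of RPTEC 2 was not well above background for BIRC5.

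Of the transcription factors, FOXM1 had differences of 1.06 and 1.05 on HK2 2 and RPTEC 1 with Empa and of 0.17 and 0.58 with IL-1β. MYBL2 had 0.63 and 1.16 with Empa on these slides and a mean over all slides of 0.69 (SE 0.18, adjusted p = 0.266). The control array of RPTEC 2 was not well above background for MYBL2. E2F1 had 0.34 and 0.60 with Empa and 0.12 and 0.29 with IL-1β. CCNE2 had 1.28 and 0.83 with Empa. On HK2 2 and RPTEC 1, the level with Empa exceeded that with IL-1β in 41 of 47 genes on both and was lower on both in 0, against 43.5% and 34.6% of all measured genes. It was more than 2-fold higher on both in 2 of 47 (1.99%). On both HK2 1 and RPTEC 2 it was higher in 6 of 25 genes (42.5%), lower in 8 (29.7%) and more than 2-fold higher in 1 (8.96%). The comparison of Empa with IL-1β does not use the control arrays.

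The genes measured on slides HK2 2 and RPTEC 1 alone had the same order of treatments there. CCNA2, the cyclin of S phase and early mitosis, had differences of 1.39 and 1.39 with Empa and of 1.03 and 1.21 with IL-1β on HK2 2 and RPTEC 1. CDC25C, the phosphatase that activates CDK1, had 1.67 and 1.43 with Empa and 0.36 and 0.22 with IL-1β. CENPA, the histone variant of centromeres, had 1.58 and 1.47 with Empa and 0.42 and 0.49 with IL-1β. In all 3 genes the values with Empa exceeded those with IL-1β on both slides. KIF20A, a kinesin of the midzone, had 1.32 and 1.14 with Empa against 0.05 and 0.06 with IL-1β, and PLK1, the Polo-like kinase, 0.80 and 1.20 against 0.33 and 0.82. E2F2 had 1.19 and 0.98 with Empa against 0.53 and 0.15 with IL-1β. MCM10, a fork protein, had 0.68 and 0.86 against 0.43 and 0.88, and on RPTEC 1 the value with IL-1β was not below that with Empa.

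Not all mitotic genes measured on every array had the pattern of CDK1. CCNB2, the other mitotic B cyclin, had -0.90 and -0.75 with Empa and -1.25 and -0.77 with IL-1β on HK2 1 and RPTEC 2, against 1.17 and 0.73 and then 0.65 and 0.43 on HK2 2 and RPTEC 1. TPX2, which activates Aurora A on the spindle, had -1.47 and -0.14 with Empa on HK2 1 and RPTEC 2 and 0.79 and 1.02 on HK2 2 and RPTEC 1. CDC20, the activator of the APC/C, had -0.58, 0.21, 0.23 and 1.02 with Empa in the order HK2 1, RPTEC 2, HK2 2 and RPTEC 1. The differences of these genes lay on both sides of 0. CCNE1, the other cyclin E, had 0.43, 0.06, 0.34 and 0.37 with Empa and values between -0.01 and 0.16 with IL-1β. MCM7, a helicase subunit, had 0.44, 0.01, -0.19 and 0.29 with Empa.

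**Figure D4:**
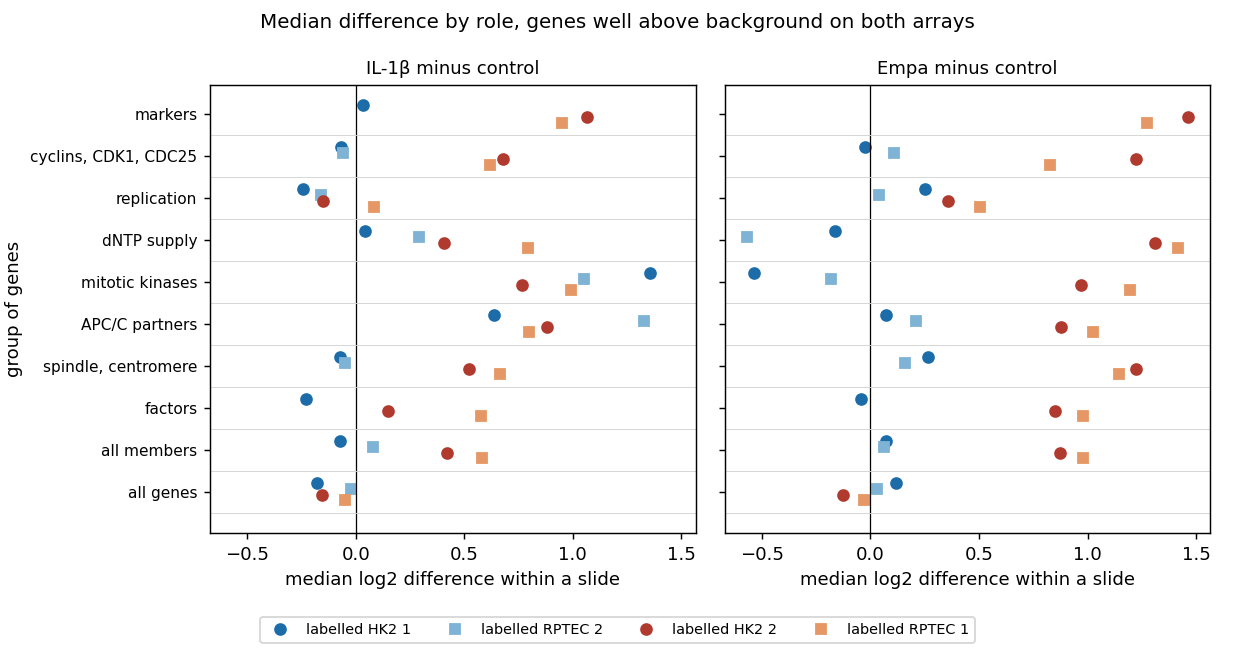
Median log2 difference within a slide for each role group, all cell cycle genes and all genes, over genes well above background on both arrays of the slide. Circles are slides labelled HK2 and squares RPTEC, in blue for HK2 1 and RPTEC 2 and in red and orange for HK2 2 and RPTEC 1. Replication genes lie near 0 with IL-1β on all slides, and APC/C partners above 0 on all slides. With IL-1β, the mitotic kinase point of RPTEC 2 is AURKA alone and the marker point of HK2 1 is MKI67 alone. The deoxynucleotide (dNTP) points of HK2 1 and RPTEC 2 with IL-1β are TK1 alone, without RRM2. With Empa all roles are above 0 on HK2 2 and RPTEC 1.

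By role, the 4 tested mitotic kinase and checkpoint genes had a median IL-1β difference of 0.97 over the slides with 1 called, and the 3 APC/C genes a median of 0.97 with 2 called, against 12.5% called and a median of -0.10 over all genes. The 6 tested spindle and centromere genes had a median of 0.48 with 0 called, and the 12 replication genes a median of -0.14 with 0 called. With Empa these medians were 0.34, 0.52, 0.78 and 0.26 with 0 called in each, against 0.00636% called and a median of -0.02 over all genes.

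Genes outside the list that govern the same steps were read in the same fit. Of 7 inhibitors of cyclin-dependent kinases, 1 rose and 1 fell with IL-1β, against 4.73% and 7.74% of all genes tested. CDKN2B, encoding p15, had signals of -3.35, -3.34, -3.003 and -3.52 with IL-1β on HK2 1, RPTEC 2, HK2 2 and RPTEC 1 (limma adjusted p = 0.0080), and it was not well above background on any control array. CDKN1C, encoding p57, fell by 0.92 (SE 0.26, adjusted p = 0.0468), with signals of 3.08, 2.90, 3.31 and 2.78 in the controls and 2.74, 2.21, 2.10 and 1.34 with IL-1β. With Empa it stood at 2.64, 1.92, 1.27 and 0.90, a log2 difference of -1.34 (adjusted p = 0.182).

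CDKN2C, encoding p18, had IL-1β differences of -2.07 and -1.91 on HK2 1 and RPTEC 2 and of -0.01 and -0.35 on HK2 2 and RPTEC 1, and its mean of -1.08 did not pass (adjusted p = 0.0761). CDKN1A, encoding p21, had a mean of -1.29 (SE 0.51, adjusted p = 0.138). The IL-1β array of RPTEC 1 was not well above background for CDKN1A. CDKN2D, encoding p19, had a mean of 1.09 with Empa and was higher on 4 of 4 slides (adjusted p = 0.134).

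Of 23 other mitotic genes tested, KIF14, a midbody kinesin, rose with IL-1β (2.21, SE 0.51, limma adjusted p = 0.0244) and the others did not pass. Over all genes tested, 12.5% passed with IL-1β and 0.00636% with Empa. The KIF14 control arrays of HK2 1 and RPTEC 2 were not well above background, so that 2.21 is no measured size. On HK2 2 and RPTEC 1 its differences were 1.44 and 1.10. With Empa, 22 of these 23 genes had a positive difference, with a median of 0.66, and 0 passed. Over all genes 7515 of 15717 were positive with Empa, and the median was -0.02. None of 6 G1 cyclin and kinase genes, 15 pocket protein, E2F and DREAM genes, 24 origin and replisome genes and 6 checkpoint kinase genes passed with either treatment. In the same order, 1, 2, 3 and 0 of them had an unadjusted p under 0.05 with IL-1β, and 1, 3, 6 and 1 had one with Empa (limma), against 27.9% and 12.1% of all genes. Of the 23 other mitotic genes, 4 had one with IL-1β and 11 with Empa, all higher. Of the 7 inhibitors, 4 had one with IL-1β (1 higher, 3 lower) and 4 with Empa (3 higher, 1 lower).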

How the data were processed

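Total RNA of 12 cultures was hybridised in 1 color (Cy3) to Agilent 4x44K v2 arrays, 3 to a slide. The deposited scanner files hold spot intensity as the authors extracted it with Feature Extraction 9.5.3.1 (per the file headers, annotated on hg19), already background-subtracted. A deposited series table holds log2 values that the authors quantile-normalized, in which the base level and other steps are not stated, and it served as an alternative. The study names biological duplicates, but p-values measure the spread between these arrays. The number of arrays limits the precision.

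Intensities were divided by the 75th percentile of the array, floored at 1 unit at the common level and log2-transformed. Control spots and outlier spots were left out, spots of a probe were averaged, and the brightest probe stood for a gene. Of 34127 probes, 33483 had a value on all 12 arrays, and 52.7% to 63.1% of probes were well above background. Genes entered the test when well above background on both arrays of a labelled group. Tests used limma 3.58.1 in R 4.3.3 with slide as a block (6 residual degrees of freedom) and Benjamini-Hochberg adjustment over all genes, and the test script was tested on simulated data. The block follows the replicate numbers of the labels, since the 3 arrays of a slide share 1 number. Deviations of arrays with the same number correlated with r = 0.593 to 0.779. The replicate slides of a label differed widely in expression, so this correlation contains that gap and was no separate test of the block. Both replicate 1 slides were scanned on a different day from the replicate 2 slides, and each slide held all 3 treatments.

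Members and lists were chosen with earlier results of these data known. Values are given for 10 members well known in cycling cells, for the member of each role with the largest difference among those measured on all arrays, and for members that passed or came close, named after their values were seen. The accession of the probe matched the symbol in RefSeq for 49 of 50 members. Whether a probe lies in an exon or UTR was not analysed here. Alternatives were no block, an effect per label, other normalizations and filters, the methods' t-test, and leaving out an array or a slide. Figures were drawn with matplotlib 3.10.9.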

Additional observations from a re-analysis of the deposited data

Results flagged for a closer look

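In CDC6, which encodes the licensing factor that loads the MCM helicase, the IL-1β difference on slide RPTEC 2 was 1.87 on the log2 scale and stood apart from those of the other 3 slides, which lay between -0.11 and 0.16. The control of slide RPTEC 2 was at the floor, and neither the control nor the IL-1β array was well above background for CDC6. Of 30 sets of 4 slide differences examined, this was the only one, and chance alone flags about 1 in 20 such sets.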

How the results depend on the processing

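With the replicate block, which pairs the arrays of a slide, 1961 genes and 3 of 35 cell cycle genes changed with IL-1β. With no replicate block these were 7 and 0, with a block and an effect per label 855 and 1, by the methods' t-test 42 and 0 after Benjamini-Hochberg, and with the replicate 1 or the replicate 2 slides alone 0 and 0. Leaving out an array or a slide gave 448 to 2943 genes and 0 to 4 cell cycle genes, the lowest of both without slide RPTEC 2 and the most genes without the HK2 Empa array of replicate 1. The authors' table gave 1 cell cycle gene, no filter on dim probes 1 and keeping outlier spots 5, which held the 3. PTTG1 stayed past the threshold in 22 of 29 alternatives (adjusted p 0.0070 to 0.588), UBE2C in 12 of 29 (0.0209 to 1.00) and BUB1 in 10 of 28 (0.0290 to 1.00), all with a positive difference. PTTG1 had an adjusted p of 0.0533 without the HK2 control of replicate 1, and of 0.0654 and 0.0666 without slides HK2 1 and RPTEC 2. Without slide HK2 1, 2 cell cycle genes passed, and without the HK2 control of replicate 1, 1 did, 0 of them among the 3. With Empa, 0 cell cycle genes passed in any alternative, while the 1 gene called over all genes became 2 by the methods' t-test and 0 with no replicate block, an effect per label, normexp, the authors' table, the strict filter, no filter and either replicate alone, and 0 to 1 when an array or slide was left out. The control levels by label gave 0 genes and, with no filter on dim probes, 5. Signs changed in small differences, and the cause was not tested. With IL-1β, FOXM1 (-0.18) was 0.078 with normexp, 0.071 with the authors' table, 0.016 on replicate 1 slides and -0.43 to 0.068 when an array or slide was left out. PCNA (-0.05) was 0.076 with the mean of its probes, 0.040 on replicate 2 slides and -0.15 to 0.032 when one was left out. CDC6 (0.46) was -0.083 on replicate 1 slides, -0.0029 without slide RPTEC 2 and -0.19 to 0.80 over all such fits. With Empa, CDC6 (0.69) was -0.42 on replicate 1 slides and -0.16 to 1.18 when one was left out, lowest without slide RPTEC 2, and AURKA (0.14) was -0.24 to 0.65, lowest without slide RPTEC 1. Of 30 gene differences followed, 19 kept their sign and side of the threshold in all alternatives. The calls of CDKN2B, CDKN1C and KIF14 with IL-1β were also lost with no replicate block (adjusted p 0.460, 0.661 and 1.00). Signal near background limits the 12 genes measured on 6 arrays or fewer.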
